A study of Homo sapiens with 12 samples.

Results

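The 6 genes of the 11q13 band of chromosome 11 followed here across 3 head and neck cancer cell lines were CCND1, FADD, PPFIA1, CTTN, SHANK2 and ANO1. They were chosen by position, as genes often gained together, with earlier results of these arrays in view, and are treated as selected on their log2 values between lines and in the Detroit comparison. Every probe set whose only symbol in the platform annotation was a member's was then taken. This gave 16 probe sets for the 6 genes, of 22215 probe sets that are not controls and 11963 genes with a probe set of their own. CCND1 had 2, FADD 1, PPFIA1 4, CTTN 4, SHANK2 4 and ANO1 1. The question was whether the genes lay higher together in a single line, as a gain in copy number would give. DNA copy number is not among the measurements used here.

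Gain of the 11q13 band is a frequent chromosome change in squamous carcinomas of the head and neck, and it can raise the expression of several neighbouring genes at once. CCND1 encodes cyclin D1, which activates CDK4 and CDK6 to release the RB brake on entry into S phase, and FADD encodes the adaptor that links death receptors to caspase-8. PPFIA1 encodes liprin-alpha-1, a scaffold of focal adhesions, CTTN encodes cortactin, which stabilises branched actin, SHANK2 encodes a scaffold best known from the postsynaptic density, and ANO1 encodes a calcium-activated chloride channel.

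Total RNA came from Detroit, Fadu and OECM1 cells. The Fadu line derives from a hypopharyngeal and the OECM1 line from an oral squamous carcinoma, while the labels do not say which Detroit line was used. Each line gave parent cells and an invasion subline, which is the cells recovered after passage through Matrigel, a basement membrane extract, so the 6 groups were Detroit parent, Detroit invasion subline, Fadu parent, Fadu invasion subline, OECM1 parent and OECM1 invasion subline. Each held 2 arrays, numbered replicate 1 and replicate 2, 12 in all. No genetic change or drug was named for any group, and nothing says that duplicates came from separate cultures, so a p-value here measures the spread between arrays, which may be technical. Values are log2 expression, on which a difference of 1.00 doubles the signal. A value above 4.52, the 40th percentile of all values, is called above the dim limit.

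The arrays labelled Detroit invasion subline stood apart from their line and are called the Detroit-labelled subline here. Over 15111 probe sets, with the members left out, r was 0.965 between their mean and that of the Fadu parent, but 0.893 to the Detroit parent. The other sublines had r = 0.980 (Fadu) and r = 0.973 (OECM1) to their own parents. The Detroit differences of the members are therefore given against the Detroit parent and against the Fadu parent. The same arrays had the widest duplicates, with a root mean square difference of 0.87 (0.43 to 0.74 in the other groups), and array medians lay between 4.92 and 5.06. The 3' minus 5' difference of the ACTB control, a control of RNA integrity and labelling, was -0.28 and 0.80 on them and ran from -0.23 to 0.87 on the other arrays. Of 5 epithelial markers (EPCAM, CDH1, KRT8, KRT18 and KRT19), all were above the dim limit on both arrays of every group, with list means from 9.0 to 10.3. Of 5 squamous markers, 3 were above it in the Detroit parent, where KRT14 and DSG3 were not, 4 in both OECM1 groups, where KRT14 was not, and 5 in the other groups. None of 3 endothelial markers was above it, at list means from 3.65 to 3.99. Fibroblast markers gave 1 to 3 of 5, at list means from 4.09 to 5.12, with COL3A1 and LUM above it on both arrays of no group. Of 3 leukocyte markers, CD3D was above it in all 6 groups and CD14 in 3, at list means from 4.20 to 4.99, and PTPRC was not. The part of these non-epithelial values in the results was not tested.

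In RefSeq's gene order (assembly GRCh38.p14) the measured genes of the interval run CCND1, FGF4, FGF3, ANO1, FADD, PPFIA1, CTTN, SHANK2. Promoter windows of 300 bases, from 250 before to 50 after the start, matched 3 members, ANO1, FADD and PPFIA1, and no entry matched CCND1, CTTN or SHANK2. FADD and PPFIA1 are shown because they follow each other in this order and were measured with unlike patterns. FADD lies at chr11:70203046-70203345 and PPFIA1 at chr11:70270440-70270739 (GRCh38.p14, RefSeq, both on the + strand), and capitals mark each GC box, GGGCGG on either strand.
FADD: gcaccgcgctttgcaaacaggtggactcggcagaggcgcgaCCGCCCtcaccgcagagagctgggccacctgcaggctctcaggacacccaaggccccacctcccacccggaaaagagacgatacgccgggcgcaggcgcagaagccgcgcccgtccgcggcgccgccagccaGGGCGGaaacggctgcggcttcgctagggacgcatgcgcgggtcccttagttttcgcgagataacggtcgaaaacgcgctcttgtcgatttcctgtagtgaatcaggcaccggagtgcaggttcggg
PPFIA1: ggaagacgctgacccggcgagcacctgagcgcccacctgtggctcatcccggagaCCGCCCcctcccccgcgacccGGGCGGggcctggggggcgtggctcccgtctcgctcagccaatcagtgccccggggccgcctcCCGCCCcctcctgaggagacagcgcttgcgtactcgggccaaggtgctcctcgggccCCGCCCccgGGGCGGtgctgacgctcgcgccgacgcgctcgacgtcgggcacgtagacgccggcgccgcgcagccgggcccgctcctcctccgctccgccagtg
The FADD window held 2 GC boxes and no CCAAT, and the PPFIA1 window held 5 GC boxes and 1 CCAAT, the latter in lower case. The ANO1 window held 4 GC boxes. GC content was 66.7% for FADD, 77.7% for PPFIA1 and 76% for ANO1, against a median of 58.7% over 35116 windows of that length. Searched on both strands, GGGCGG was in 45.0% of all windows, CCAAT in 34.6%, TATAAA in 11.5%, CACGTG in 7.26% and TGACTCA in 4.95%. The last 3 were in none of the 3 members' windows, and no 2 matches overlapped. A match describes the letters only.

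**Figure D1:**
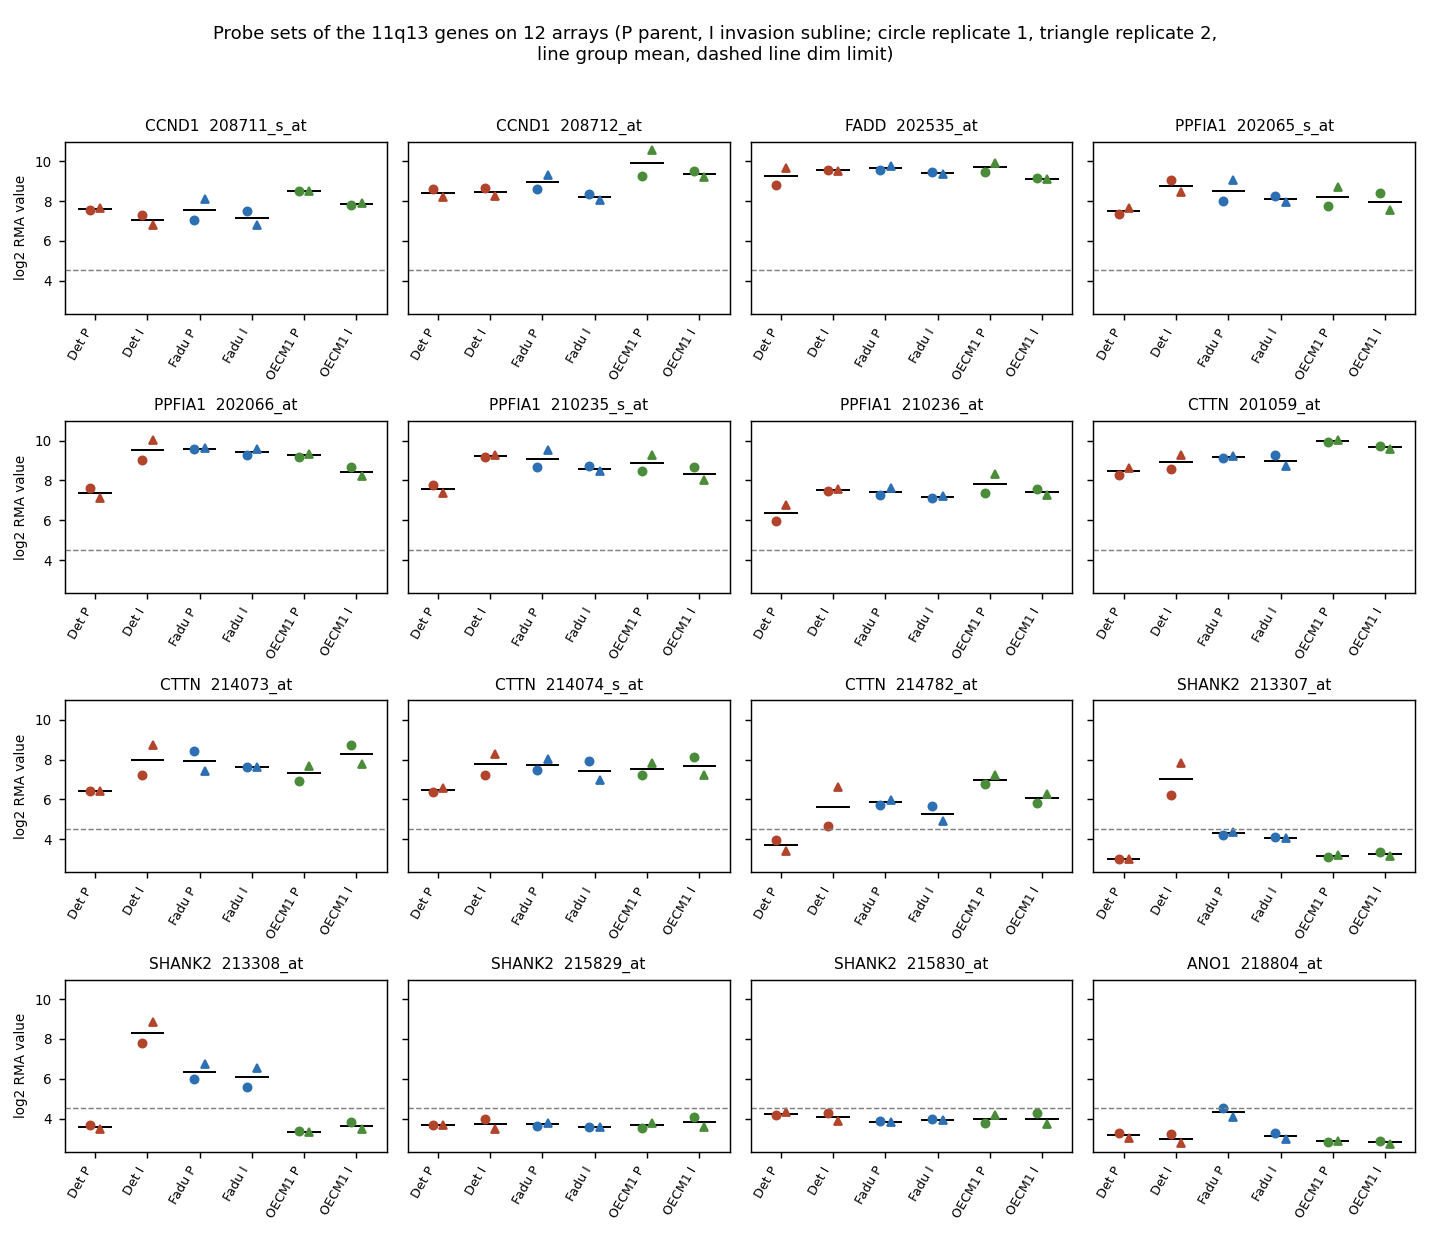
Log2 RMA value (vertical axis) of the 16 probe sets of the 11q13 genes, each in its own panel, on the 12 arrays by group; circles are replicate 1, triangles replicate 2, short lines group means and the dashed line the dim limit of 4.52. SHANK2 213308_at stands at 7.79 and 8.83 on the Detroit-labelled subline and at 3.70 and 3.49 in the Detroit parent, while FADD stays between 8.81 and 9.94 on every array.

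No line held the highest level of all 6 genes. By the brightest probe set of each gene, CCND1, FADD and CTTN were highest in the OECM1 parent, PPFIA1 and ANO1 in the Fadu parent, and SHANK2 in the Detroit-labelled subline. Other PPFIA1 probe sets ranked differently, with 202065_s_at and 210235_s_at highest in the Detroit-labelled subline and 210236_at in the OECM1 parent. On all 4 PPFIA1 probe sets the highest group overlapped the next, as it did for CCND1 208712_at and FADD. The ANO1 mean in the Fadu parent, 4.32, was below the dim limit. CTTN 201059_at and SHANK2 213308_at had a highest group clear of the next. The Detroit parent was the low end for the 4 probe sets of PPFIA1 and the 4 of CTTN. The levels that follow were among those known when the genes were chosen, so levels between lines and the Detroit differences are described without a test.

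CCND1, the cyclin gene at the start of the interval, was brightest in OECM1. Probe set 208712_at read 9.24 and 10.59 in the OECM1 parent and 9.53 and 9.20 in its subline (replicate 1 first, here and below). In Fadu it read 8.62 and 9.34 in the parent and 8.36 and 8.04 in the subline. The Detroit parent read 8.59 and 8.21 and the Detroit subline 8.64 and 8.24. Both OECM1 parent arrays lay above both Detroit parent arrays, but each group in the order of means overlapped the next, so the duplicates do not separate neighbours. The second probe set, 208711_s_at, ran from 6.78 to 8.53 over the arrays. It too was highest in the OECM1 parent, at 8.48 and 8.53, clear of the OECM1 subline at 7.80 and 7.93. The Detroit-labelled subline was at its low end, at 7.29 and 6.78, below both Detroit parent arrays at 7.54 and 7.65.

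FADD, the death receptor adaptor, varied little. Its only probe set, 202535_at, read 8.81 and 9.67 in the Detroit parent and 9.59 and 9.49 in the Detroit subline. The Fadu parent read 9.58 and 9.76 and the Fadu subline 9.45 and 9.39. In OECM1 the parent read 9.49 and 9.94 and the subline 9.15 and 9.11. The 2 Detroit parent arrays were the lowest and the third highest of the 12, and no parent stood clear of another.

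PPFIA1, the liprin gene next to FADD, was low in the Detroit parent and higher in the other groups. Probe set 202066_at read 7.63 and 7.10 in the Detroit parent and 9.01 and 10.04 in the Detroit-labelled subline. The Fadu parent read 9.56 and 9.65 and its subline 9.30 and 9.57. The OECM1 parent read 9.19 and 9.33 and its subline 8.68 and 8.20. The Detroit parent was thus below every other array on this probe set. Probe set 210235_s_at showed the same low end, at 7.75 and 7.38 in the Detroit parent against 8.01 to 9.51 on the other 10 arrays. On 210236_at the Detroit parent read 5.95 and 6.74 against 7.12 to 8.33, and on 202065_s_at 7.38 and 7.67 against 7.54 to 9.07, so only the last overlapped. Probe sets 210235_s_at and 210236_at were designed on the same source sequence and are not independent views of the gene.

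CTTN, the cortactin gene, was low in the Detroit parent and highest in the OECM1 parent on 2 of its 4 probe sets. Probe set 201059_at read 8.28 and 8.64 in the Detroit parent and 8.58 and 9.29 in the Detroit subline. The Fadu parent read 9.12 and 9.25 and the Fadu subline 9.28 and 8.71. The OECM1 parent read 9.94 and 10.05 and the OECM1 subline 9.74 and 9.56. All 4 OECM1 arrays lay above the 8 others. Probe set 214782_at had a wider range, from 3.98 and 3.44 in the Detroit parent, both below the dim limit, to 6.78 and 7.23 in the OECM1 parent. Its Detroit subline duplicates were far apart, at 4.66 and 6.62, while the Fadu parent read 5.75 and 5.97, the Fadu subline 5.66 and 4.89 and the OECM1 subline 5.84 and 6.28. The other 2 probe sets, 214073_at and 214074_s_at, share a source sequence. They read 6.39 to 6.60 in the Detroit parent and 6.94 to 8.75 on the other arrays, with no order between Fadu and OECM1.

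SHANK2, the scaffold gene at the far end of the interval, had the widest range and followed CTTN at most in part. Over the 12 arrays 213308_at had r = -0.323 with CTTN 201059_at, 0.018 with 214782_at and 0.388 with 214073_at and 214074_s_at. Probe set 213308_at read 3.70 and 3.49 in the Detroit parent and 7.79 and 8.83 in the Detroit-labelled subline. Fadu cells were between these, at 5.98 and 6.72 in the parent and 5.61 and 6.55 in the subline. The OECM1 parent read 3.38 and 3.32 and its subline 3.81 and 3.49, so the OECM1 and Detroit parent arrays were all below the dim limit. On 213307_at the Detroit-labelled subline read 6.23 and 7.83 and the other 10 arrays 2.99 to 4.37, all below the limit. These 2 probe sets thus passed the filter only through the groups where they were high, and had to differ. The remaining 2, 215829_at and 215830_at, share a source sequence and stayed at 3.47 to 4.09 and 3.71 to 4.31, below the limit on every array. The gene's probe sets therefore did not give the same picture: r over the 12 arrays was 0.920 between the first pair and -0.19 to -0.10 between the pairs.

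ANO1, the chloride channel gene, was above the dim limit on 1 array only. Probe set 218804_at read 4.55 and 4.09 in the Fadu parent and 3.29 and 2.96 in the Fadu subline. The Detroit groups read 3.29 and 3.04 in the parent and 3.20 and 2.78 in the subline. The OECM1 groups read 2.85 and 2.88 in the parent and 2.89 and 2.74 in the subline. The Fadu parent was thus the high group, at a level where RMA values are compressed.

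Between parents, the 6 genes did not shift by a common amount. Fadu parent minus Detroit parent was 2.75 (SE 0.405) for SHANK2 213308_at and 1.29 (SE 0.398) for 213307_at. The Detroit parent was below the dim limit on both probe sets and the Fadu parent on the second. The difference was 2.24 (SE 0.388) for PPFIA1 202066_at and 1.00 to 1.53 for its other probe sets. It was 0.73 to 2.15 for CTTN, 0.43 (SE 0.335) for FADD, 1.15 for the dim ANO1, and 0.57 (SE 0.453) and -0.01 (SE 0.408) for CCND1. Both Fadu arrays lay above both Detroit arrays for 12 of 16 probe sets and below for 1 (22.2 and 24.0% of all probe sets), with FADD the gene left out of the 12. OECM1 parent minus Detroit parent was 1.51 for CCND1 208712_at and 0.91 for 208711_s_at, 0.71 to 1.90 for PPFIA1, 0.88 to 3.29 for CTTN and 0.47 for FADD. It was -0.25 for SHANK2 213308_at, 0.15 for 213307_at and -0.30 for ANO1, all from levels below the dim limit. Both OECM1 arrays lay above for 11 of 16 and below for 3 (19.9 and 21.4% of all). Both comparisons rest on the same 2 Detroit parent arrays. OECM1 parent minus Fadu parent, which does not use them, was 0.94 for CCND1 208712_at and 0.93 for 208711_s_at. CTTN probe sets pointed both ways, with 0.81 on 201059_at and 1.14 on 214782_at but -0.62 on 214073_at and -0.22 on 214074_s_at. The difference was 0.04 for FADD, -0.34 to 0.41 for PPFIA1, -3.00 for SHANK2 213308_at, -1.13 for 213307_at and -1.46 for ANO1. The OECM1 parent was below the dim limit for SHANK2 and ANO1. Here 3 of 16 probe sets lay above and 4 below (17.3 and 19.2% of all). The 3 were CCND1 208711_s_at and CTTN 201059_at and 214782_at, and the 4 were PPFIA1 202066_at, ANO1 and the 2 SHANK2 probe sets above, while CCND1 208712_at overlapped.

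The arrays labelled Detroit invasion subline differed from the Detroit parent for the genes at the far end of the interval and little for those at its start. SHANK2 had a log2 difference of 4.71 on 213308_at (SE 0.405) and 4.02 on 213307_at (SE 0.398). The Detroit parent was below the dim limit on both, where values are compressed, so no fold is given. PPFIA1 differed by 2.16 (SE 0.388), 1.65, 1.24 and 1.17, from 4.46-fold to 2.25-fold. CTTN differed by 1.93 (SE 0.534, on 214782_at, where the Detroit parent was below the dim limit), 1.54, 1.26 and 0.47, and FADD by 0.30 (SE 0.335). CCND1 differed by 0.04 (SE 0.453) and -0.56 (SE 0.408), and the dim ANO1 was 3.20 and 2.78 against 3.29 and 3.04. Both subline arrays lay above both parent arrays for 9 of 16 probe sets (18.0% of all), namely 2 of SHANK2, 4 of PPFIA1 and 3 of CTTN, and below for 1, CCND1 208711_s_at (18.1%). Because the genes are treated as chosen by these values, nothing is read from that count.

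Against the Fadu parent the same arrays were higher for SHANK2 and lower for ANO1. SHANK2 lay 1.96 above it on 213308_at (SE 0.405), or 3.89-fold, and 2.73 on 213307_at (SE 0.398), where the Fadu parent was below the dim limit. ANO1 differed by -1.33, from a Fadu parent above that limit on 1 array. The 11 other tested probe sets differed by -0.55 to 0.24, each with a 95% interval that included 0. In this comparison limma called 0 of all 15124 probe sets, those of SHANK2 included, so the differences from the Fadu parent are a description. It called 5 with the ACTB 3' minus 5' difference as a covariate, none of them members. The members' median difference from the Fadu parent was 0.01, but 0.16 without Detroit invasion subline replicate 1 and -0.29 without replicate 2. A count of 0 therefore does not show that these arrays matched the Fadu parent. With the ACTB 3' minus 5' difference as a covariate, the differences from the Detroit parent were 4.62 and 3.86 for SHANK2 and 2.07 for PPFIA1 202066_at. Several differences from the Detroit parent depended on an array. Without Detroit invasion subline replicate 1 CTTN differed by 2.92 on 214782_at, 2.29 on 214073_at, 1.78 on 214074_s_at and 0.83 on 201059_at, and without replicate 2 by 0.95, 0.80, 0.75 and 0.12. SHANK2 213307_at moved in the same way, to 4.82 and 3.22. FADD 202535_at differed by -0.13 without Detroit parent replicate 1 and 0.73 without replicate 2.

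**Figure D2:**
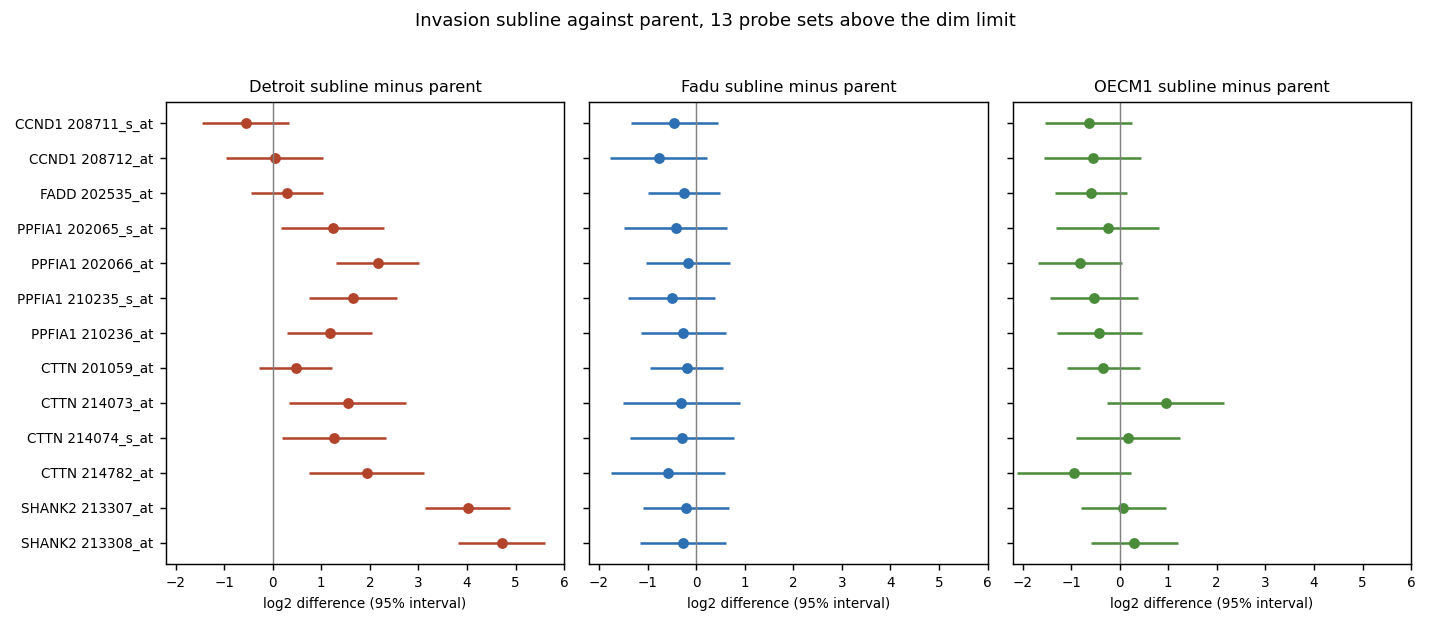
Log2 difference of invasion subline minus parent (horizontal axis) for the 13 probe sets above the dim limit, with points for the fitted difference and bars for its 95% interval, in Detroit, Fadu and OECM1 from left to right. In Detroit the 2 SHANK2 probe sets stand at 4.02 and 4.71 above a parent below the dim limit, and in Fadu all 13 points lie below 0 with intervals that include it.

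In Fadu no 11q13 gene passed the test between the invasion subline and its parent. The genes were not chosen by this contrast, but its parent arrays also entered the levels between lines on which they are treated as selected, so the signs below, like those in OECM1, are not free of that choice and are given as a description. Limma called 0 of the 13 probe sets that passed the filter (adjusted p = 1 for each, Benjamini-Hochberg over 15124 probe sets), and 0 had an unadjusted p under 0.05. It called 3 of all 15124, or 0.0198%, and 265 had an unadjusted p under 0.05. The largest difference was that of CCND1 208712_at, -0.78 (SE 0.453, 95% interval -1.77 to 0.22, as in the parentheses that follow), with both subline arrays below both parent arrays. FADD differed by -0.25 (-0.99 to 0.49), PPFIA1 by -0.50 to -0.17, CTTN by -0.58 to -0.19, and SHANK2 by -0.27 (-1.17 to 0.62) and -0.21. All 13 values were below 0, with a median of -0.29, where the median of all probe sets was -0.01 and 47.8% were above 0. The 13, here and in OECM1, come from 5 genes and share the same parent arrays, so they are not separate observations. With 1 probe set a gene, 5 of 5 were below 0 in Fadu, with a median of -0.25. Leaving out a Fadu array in turn gave 10 to 12 of 13 below 0, with medians from -0.56 without Fadu parent replicate 1 to -0.12 without Fadu parent replicate 2. Of the 16 probe sets, 7 lay below the parent on both arrays and 1 above (19.7 and 12.2% of all). Of the 7, the SHANK2 probe sets 213307_at and 215829_at were below the dim limit on every Fadu array and ANO1 was above it on 1, and the probe set that lay above the parent, SHANK2 215830_at, was also dim. ANO1, which did not pass the filter, differed by -1.20 (SE 0.184, 95% interval -1.60 to -0.79) when limma was run with no filter, with an adjusted p = 0.264.

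The same comparison in OECM1 also gave no call. Limma called 0 of 13 (adjusted p = 1.00 for each, Benjamini-Hochberg), none had an unadjusted p under 0.05, and 1 of all 15124 probe sets was called, or 0.00661%, with 498 at an unadjusted p under 0.05. PPFIA1 202066_at had the smallest unadjusted p of the 13 in this limma fit, 0.0596, with a difference of -0.82 (SE 0.388, 95% interval -1.67 to 0.04). CCND1 differed by -0.55 on 208712_at and -0.64 on 208711_s_at, and FADD by -0.58 (-1.32 to 0.15). CTTN probe sets pointed both ways, with 0.95 (-0.26 to 2.15) on 214073_at and -0.94 (-2.12 to 0.24) on 214782_at. SHANK2 differed by 0.30 (-0.59 to 1.20) and 0.08. Both of its probe sets were below the dim limit on every OECM1 array and passed the filter only through other groups. Nothing is read from their missing calls or their signs here. In all, 9 of 13 were below 0 with a median of -0.42, against 0.00 for all probe sets. Without OECM1 parent replicate 2, 6 of 13 were below 0 and the median was 0.07. Both subline arrays lay below both parent arrays for 5 of 16 probe sets and above for 2 (11.9 and 12.7% of all).

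The OECM1 and Fadu differences themselves were compared in the same limma fit. It called 0 of the 13 probe sets (adjusted p = 1.00 for each, Benjamini-Hochberg) and 0.00% of all 15124, with 0 of the 13 and 347 of all at an unadjusted p under 0.05. The widest gap, OECM1 minus Fadu, was 1.25 for CTTN 214073_at (SE 0.773, 95% interval -0.45 to 2.96). PPFIA1 202066_at gave -0.65 (-1.86 to 0.56). Intervals of this width do not show that the 2 differences were alike.

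**Figure D3:**
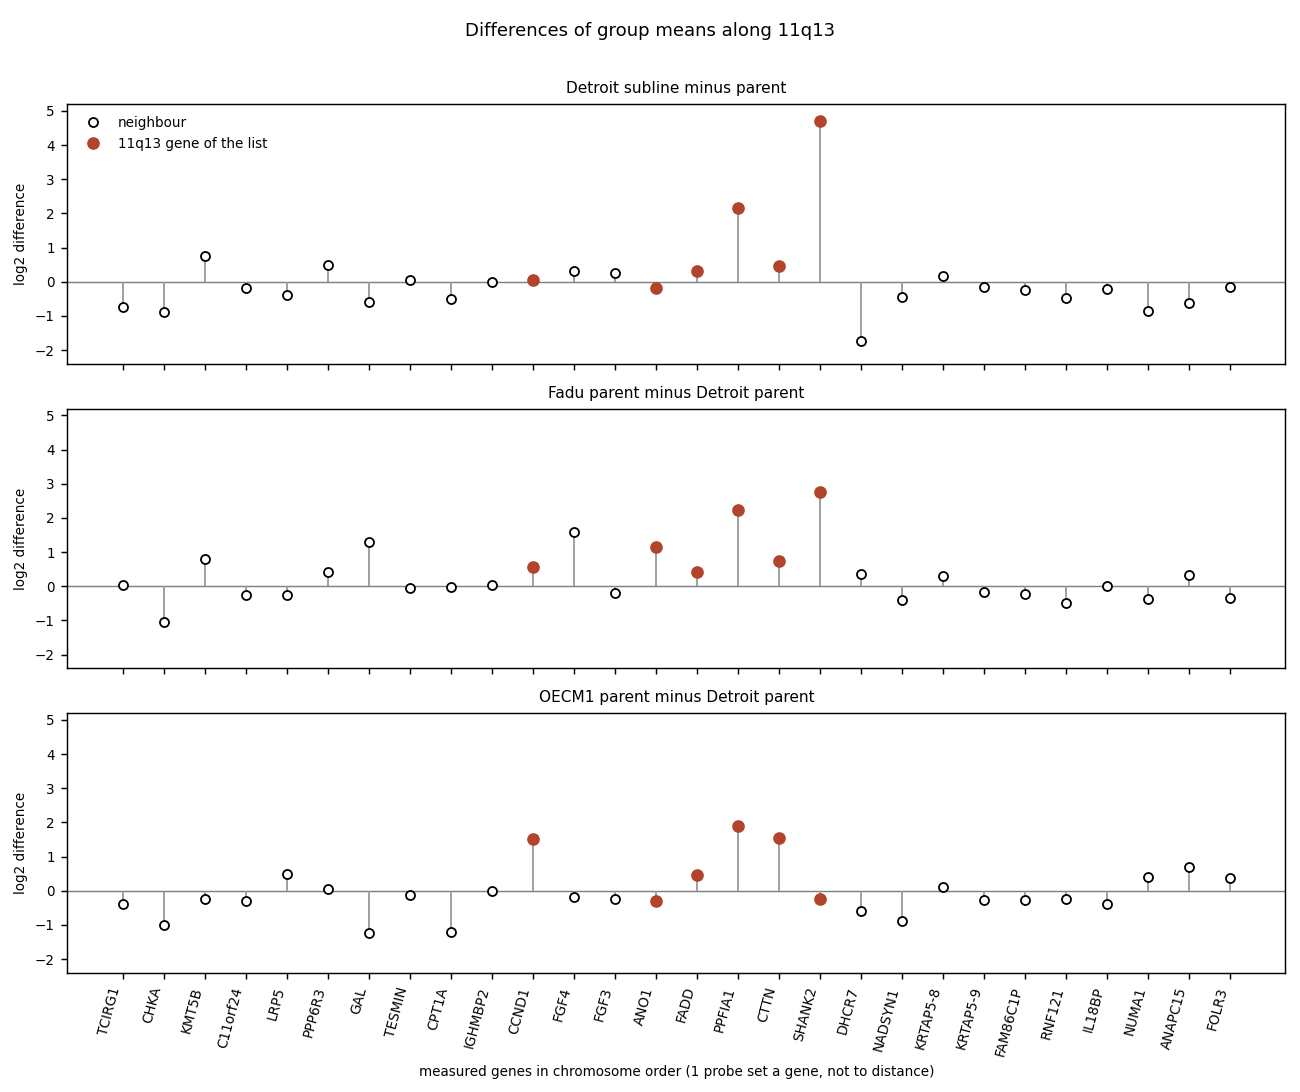
Log2 difference of group means (vertical axis) of the 6 genes (filled) and of 22 neighbouring measured genes (open) in chromosome order, spaced evenly and not by distance, 1 probe set a gene. PPFIA1 stands at 2.16, 2.24 and 1.90 in the 3 panels, SHANK2 at 4.71, 2.75 and -0.25, and the 10 flanking genes on each side have medians of -0.31, -0.04 and -0.26.

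The genes nearest the interval gave no call. Of the 10 measured genes on each side of the interval, 18 of 20 passed the filter. Limma called 0 of them in each of these comparisons (0 to 3 had an unadjusted p under 0.05). Over all probe sets it called 0 to 3.29% in the same comparisons, so a count of 0 is near that share for these genes. Their median difference between the Detroit-labelled subline and the Detroit parent was -0.31, with 4 above 0 and 16 below, against -0.01 for all genes. Against the Fadu parent it was -0.05, with 7 above 0 and 13 below. Fadu parent minus Detroit parent had a median of -0.04 and OECM1 parent minus Detroit parent of -0.26. In the tested sublines the medians were -0.10 for Fadu and 0.18 for OECM1, against -0.04 and 0.01 for all genes. DHCR7, a cholesterol synthesis gene that follows SHANK2 in this order, had a log2 difference of -1.74 between the Detroit-labelled subline and the Detroit parent, which did not pass (adjusted p = 0.0832, limma), and of -2.11 from the Fadu parent. IGHMBP2, the measured gene before CCND1, differed by -0.01 and -0.04. Of the 20 measured genes on each side, 37 of 40 passed the filter. Limma called 1 of them, P2RY2 (log2 difference -2.10), between the Detroit-labelled subline and the Detroit parent, where it called 3.02% of all probe sets. It called 1, GSTP1 (-1.22), in OECM1 minus Fadu parent, where it called 2.43%, and 0 in the other comparisons. These counts are near the shares and nothing is read from them.

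Between CCND1 and ANO1 lie FGF4 and FGF3, which encode secreted growth factors. FGF4 read 5.38 and 6.65 in the Fadu parent and 4.09 to 4.75 on the other 10 arrays. Fadu subline minus parent was -1.51 on the log2 scale (SE 0.361, adjusted p = 1, limma), which did not pass. The Fadu parent was thus the high group for FGF4 as for ANO1, the next member in the order. FGF3 was above the dim limit on 1 array.

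**Figure D4:**
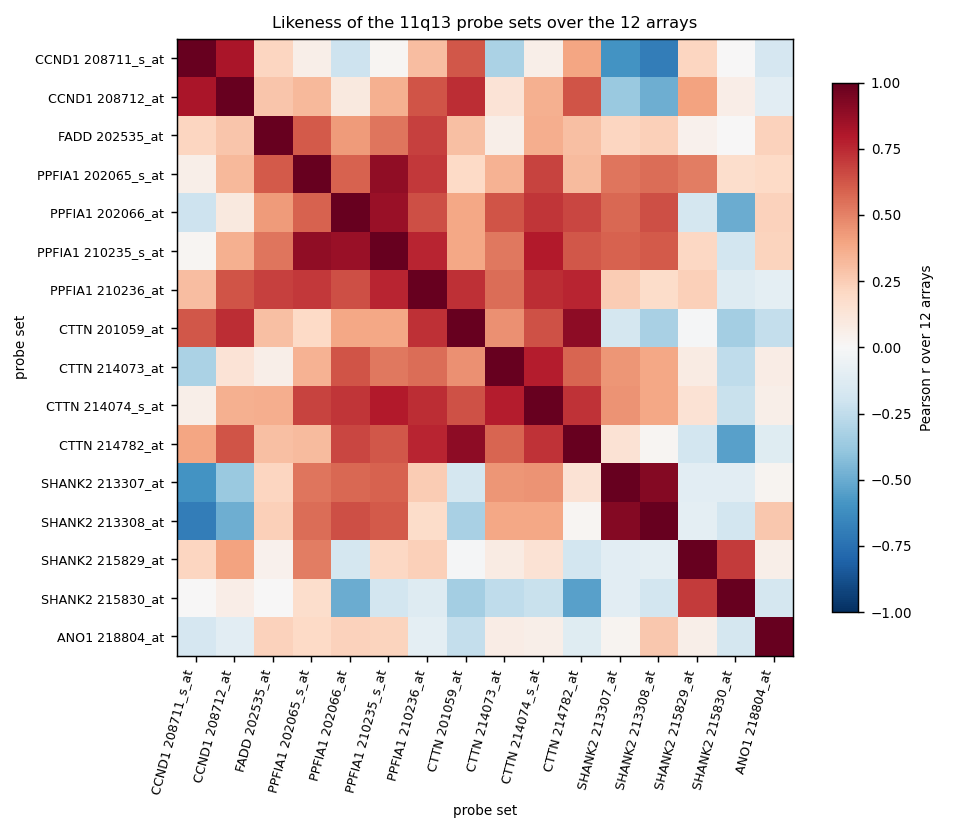
Pearson r over the 12 arrays between each pair of the 16 probe sets, on a colour scale from -1 (blue) to 1 (red). The 2 probe sets of CCND1 are red with each other (r = 0.817) and with CTTN 201059_at (r = 0.738 for 208712_at), those of PPFIA1 and CTTN are mostly red with each other, and SHANK2 213308_at is blue against CCND1 (r = -0.486 with 208712_at).

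The genes followed each other only in part over the arrays. With the brightest probe set of each gene, r over the 12 arrays was above 0 for 11 of 15 pairs, with a median of 0.241. It ran from -0.486 for CCND1 and SHANK2 to 0.738 for CCND1 and CTTN, and was 0.648 for PPFIA1 and SHANK2. FADD and PPFIA1, whose promoter windows are printed above, had r = 0.425. The arrays share 3 lines and 6 groups, so these values describe the 12 arrays and not independent samples. Within genes, r was 0.589 to 0.889 for PPFIA1 and 0.459 to 0.895 for CTTN.

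The genes most like the mean of the 6 members over the 12 arrays were PPP1R26 (r = 0.912), CAMSAP1 (0.895), AK4 (0.889), TFE3 (0.887) and PRRC2B (0.883). PPP1R26, CAMSAP1 and PRRC2B lie on chromosome 9, AK4 on chromosome 1 and TFE3 on the X chromosome. The mean was of values centred but not scaled, so SHANK2, with a range of 5.52 on 213308_at against 1.13 for FADD, weighs most in it. Nothing about the 6 genes as a set is read from these matches. By member, the closest gene was IL1B for CCND1 (r = 0.943), CDC16 for FADD (0.854), U2SURP for PPFIA1 (0.924), GSDME for CTTN (0.909), EFL1 for SHANK2 (0.966) and BST2 for ANO1 (0.889). Each is the highest value of all tested genes over the same 12 arrays.

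Genes that work with the members gave no call in the Fadu or OECM1 sublines. The gene lists, like the members, were chosen with earlier results of these arrays known, so the p-values of their genes are given as a description and support nothing else. Limma called 0 genes of the 8 lists (partners of each member, distal 11q genes and 11q13 neighbours) in either comparison. It called 0.0198% of all 15124 probe sets in Fadu and 0.00661% in OECM1, so a count of 0 is near those shares. At an unadjusted p under 0.05 there were 2 in Fadu, CCND2 and FGF4, and 1 each of the cortactin, liprin and SHANK lists in OECM1. Over all 15124 probe sets there were 265 in Fadu and 498 in OECM1. In the Detroit-labelled subline against the Detroit parent, where limma called 3.02% of all probe sets, 0 of 15 tested genes of the cyclin D and RB list and 0 of 13 of the cortactin and branched actin list were called (1 each at an unadjusted p under 0.05). The 1 tested anoctamin gene was not called. Of 8 death receptor genes BID, which carries the death signal to mitochondria, fell by 2.31 (SE 0.395, adjusted p = 0.0107, limma) and 7 did not pass. Of 8 tested liprin partners, the receptor phosphatase gene PTPRF rose by 2.03 (SE 0.381, adjusted p = 0.0170, limma) and the scaffold gene ERC1 by 2.29 (SE 0.466, adjusted p = 0.0248). Of 7 SHANK partners, HOMER2, which encodes a postsynaptic scaffold, rose by 1.30 (SE 0.292, adjusted p = 0.0385, limma). The Fadu parent means of these genes were 7.59 for BID, 8.0 for PTPRF, 7.20 for ERC1 and 5.27 for HOMER2, against 7.43, 8.10, 7.95 and 6.06 on the Detroit-labelled subline and 9.74, 6.07, 5.65 and 4.76 in the Detroit parent. All 4 lay nearer to the Fadu than to the Detroit parent. Single arrays decided these calls. Without Detroit invasion subline replicate 2 the adjusted p = 0.0535 for BID, 0.0641 for PTPRF and 0.107 for ERC1, and without Detroit parent replicate 2 it was 0.0588, 0.0852 and 0.0976 (limma). Leaving out Detroit parent replicate 1 ended the ERC1 call too (adjusted p = 0.141, limma), and of the fits that left out 1 array, the HOMER2 call held only in those without Detroit invasion subline replicate 1, OECM1 parent replicate 1 or OECM1 parent replicate 2.

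CCND2, the paralogue of CCND1, had the widest range of group means in the cyclin list. It averaged 9.15 ± 1.05 (SD, n = 2 arrays) in the Fadu subline and 6.64 in the Fadu parent, a difference of 2.52 (SE 0.770, limma adjusted p = 1) that did not pass. HCLS1, the blood-cell paralogue of CTTN, averaged 5.98 in the OECM1 parent and 5.90 in its subline and 3.40 to 3.80 in the other 4 groups, below the dim limit.

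Of 7 tested genes on the distal long arm of chromosome 11, BIRC2 and YAP1 were called in the Detroit comparison. BIRC2, an inhibitor of apoptosis, averaged 10.70 in the OECM1 parent, 7.85 in the Fadu parent and 9.97 in the Detroit parent. YAP1, the Hippo pathway coactivator, averaged 8.81, 6.66 and 8.73 in the same groups. Both were lower in the Detroit-labelled subline than in the Detroit parent, by a log2 difference of -2.62 for BIRC2 (SE 0.412, adjusted p = 0.00690, limma) and -3.23 for YAP1 (SE 0.417, adjusted p = 0.00224, limma). Without Detroit parent replicate 1 the BIRC2 call ended (adjusted p = 0.0610, limma). BIRC2 and YAP1 averaged 7.35 and 5.50 on the Detroit-labelled subline. The 5 other tested genes of the list were not called. Among the parents, Fadu had the lowest mean of both genes and the highest of SHANK2 213308_at and ANO1.

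In a fit to the Detroit arrays alone, none of the 6 partner and distal genes named above as called between the Detroit-labelled subline and the Detroit parent passed (adjusted p = 0.0942 for YAP1 to 0.258 for HOMER2, limma). Between the parents limma called 12 differences in 6 of the listed genes, and 1 of the 12 held in every fit that left out an array. That was BID in OECM1 minus Detroit, -2.52 (SE 0.395, adjusted p = 0.00627, limma). PTPRF was also called there, at 2.39 (SE 0.381, adjusted p = 0.00670), but not without OECM1 parent replicate 1 (0.0561), and HCLS1, at 2.18 (adjusted p = 0.0273), was not called without either Detroit parent array or OECM1 parent replicate 1 (0.0538 to 0.187). In that comparison limma called 3.29% of all probe sets.

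In OECM1 minus Fadu parent, where 2.43% of all were called, BIRC2 was higher by 2.85 and YAP1 by 2.14 (adjusted p = 0.00520 and 0.0228, limma). Without Fadu parent replicate 1 these became 0.0731 and 0.242, and YAP1 was not called without OECM1 parent replicate 2 either (0.101). HCLS1 was higher by 2.46 (adjusted p = 0.0173) and was not called without either Fadu parent array or OECM1 parent replicate 1. FGF4 was lower by a log2 difference of -1.76 (adjusted p = 0.0294) and called in 6 of 12 fits without an array. In Fadu minus Detroit parent, where 2.29% were called, BID differed by -2.15, BIRC2 by -2.12, YAP1 by -2.07, PTPRF by 1.93 and FGF4 by 1.59 (adjusted p = 0.0189, 0.0245, 0.0287, 0.0262 and 0.0490, limma), and each lost its call without Fadu parent replicate 2 (0.0552 for YAP1 to 0.255 for FGF4) and kept it in 3 to 8 of the 12 fits.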

How the data were processed

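Total RNA from 12 samples was hybridised to Affymetrix arrays, 1 a sample. The deposited values are log2 expression, made by the authors with RMA (background correction, a common distribution, and a summary of each probe set) and handled in Partek 7, per the submitters' processing notes. No genome build for the values is given in the sources used here. Arrays have no read depth, and precision is limited by 2 arrays a group. Of 22283 probe sets, 68 controls were left out. Platform annotation gave 1 gene symbol to 19065 probe sets, several to 1043 and none to 2107, and those with several or none were not named. Of the first, 19053 were found in RefSeq's table by gene identifier.

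Probe sets above 4.52 (the 40th percentile) on at least 2 arrays were tested, 15124 in all, 13 of the 16 members among them. Limma 3.58.1 in R 4.3.3 fitted a mean for each of the 6 groups with an intensity trend, and p-values were Benjamini-Hochberg adjusted over the 15124 at a threshold of 0.05. The scripts were tested on simulated data. Members and gene lists were chosen with earlier results of these data known, so the Detroit comparison and the levels between lines are described, and only the Fadu and OECM1 comparisons and their difference were tested for the members. Their parent arrays also entered the levels between lines. Calls of list genes are given as a description. Named were all member probe sets, measured genes next to the interval, list genes that were called or among the 3 of widest range, and genes of highest correlation. Where 1 probe set stands for a gene, it is the one with the highest mean. Alternatives were other filters, 1 probe set a gene, the replicate number as a block, array weights, no trend, a control ratio as covariate, each line alone and each array left out. Settings added after the data were seen were median centring, a fit without the arrays labelled Detroit invasion subline, and crossed replicate numbers.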

Additional observations from a re-analysis of the deposited data

Results flagged for a closer look

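For 4 of the 16 probe sets, both arrays of the invasion subline lay on one side of both parent arrays in a line and on the opposite side in another line. The same held for 11.5% of all 22215 probe sets. These differences between lines were not tested, because the Detroit values had been used to choose the genes. PPFIA1 202066_at, the liprin-alpha-1 gene, was 2.16 higher in the arrays labelled Detroit invasion subline than in the Detroit parent and differed by -0.82 in OECM1. PPFIA1 210236_at was 1.17 higher in the Detroit comparison and differed by -0.27 in Fadu. CTTN 214782_at, of the cortactin gene, was 1.93 higher in the Detroit comparison and differed by -0.58 in Fadu and -0.94 in OECM1. SHANK2 213307_at was 4.02 higher in the Detroit comparison and differed by -0.21 in Fadu, where all 4 arrays were below the dim limit.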

How the results depend on the processing

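Under every alternative run, 0 of the tested probe sets of the 11q13 genes passed in Fadu, in OECM1 and in the difference between them, including the fit with the replicate block within each line (0 members called, and 0 of all probe sets called in either line). The replicate numbers correlated at -0.17 in Detroit, -0.41 in Fadu and -0.40 in OECM1 as differences between duplicates, and neither they nor the labels establish a pairing. Of the 18 calls of listed genes in the Detroit comparison and between parents, 5 held with the replicate block (BIRC2 and YAP1 in Detroit, BID and PTPRF in OECM1 minus Detroit parent, BIRC2 in OECM1 minus Fadu parent; adjusted p = 0.0230 to 0.0482, limma), and the others had an adjusted p = 0.0649 to 0.136. With crossed numbers as a block, 2 probe sets were called in Fadu and 0 in OECM1, none of them members. The count of 9 probe sets above the Detroit parent was 9 to 11 over its alternatives. Leaving out an array can only keep or raise this count, so those alternatives could not lower it and nothing is read from the range. The neighbours' Fadu median of -0.10 became -0.061 with arrays centred on their medians and -0.16 to -0.12 with an array left out. The sign of 19 values turned when an array was left out, over all such fits from lowest to highest as follows. In Fadu the range was -0.48 to 0.093 for CTTN 201059_at, -0.83 to 0.21 for 214073_at and -0.77 to 0.19 for 214074_s_at, -0.94 to 0.089 for PPFIA1 202065_s_at, -0.99 to 0.091 for CCND1 208711_s_at and -0.74 to 0.20 for SHANK2 213308_at. In OECM1 it was -0.72 to 0.22 for PPFIA1 202065_s_at and -0.91 to 0.067 for 210236_at, -1.23 to 0.12 for CCND1 208712_at, -0.027 to 0.18 for SHANK2 213307_at and -0.28 to 0.62 for CTTN 214074_s_at. For OECM1 minus Fadu it was -0.43 to 0.14 for CTTN 201059_at, -0.018 to 0.94 for 214074_s_at and -0.74 to 0.027 for 214782_at, -0.34 to 0.69 for PPFIA1 202065_s_at, -0.44 to 0.39 for 210235_s_at and -0.64 to 0.33 for 210236_at, and -0.73 to 0.35 and -0.45 to 0.90 for CCND1 208711_s_at and 208712_at. The cause was not tested. With 2 arrays a group, intervals of about 1 log2 unit to each side leave moderate differences undetectable, and values below the dim limit are compressed.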
